A study of Nasonia vitripennis with 15 samples.

Results

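The testes of *Nasonia vitripennis* nymphs kept at 36 °C were compared with those of nymphs kept at 25 °C, at 24 h in both cases. The comparison used 6 of the 15 RNA libraries of the series, chosen by their labels: 3 pools (A, B and C) from 36 °C (36 °C pools) and 3 pools from 25 °C (25 °C pools). *N. vitripennis* is a small parasitoid wasp in which spermatogenesis runs synchronously through the nymphal stages. All 6 pools came from the AsymC strain and carried the stage label of white nymphs with red eyes, when by the methods the germ cells are secondary spermatocytes. The other 9 libraries were from 25 °C at 0 h and from 36 °C and 25 °C at 10 h, with the label of white nymphs, and the design gives 25 °C as the rearing temperature before the start. A pool held 60 testes by the labels, and the methods give another number. A pool mixes the germ cells with the cyst cells and sheath of the testis, and fewer cells of a type cannot be told apart from less RNA per cell. Nothing in the labels says whether the pools came from separate cultures, so that p-values measure the spread between these pools only.

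Animal cells meet heat with a conserved response in which transcription of chaperone genes is switched on by the heat shock factor. Small heat shock proteins hold unfolding proteins in solution without using ATP, whereas the Hsp70 and Hsp90 machines refold or mature their clients with ATP and with cochaperones. In many animals, male meiosis and the making of sperm are among the processes most sensitive to heat. In the fruit fly, most of the genes for the sperm tail are already transcribed in spermatocytes and their mRNAs are stored for later use.

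Counts were deposited per RefSeq transcript. The total count was 5040703, 2640772 and 2498166 in 36 °C pools A, B and C, against 3716748, 2231479 and 2556211 in 25 °C pools A, B and C. Levels are given below as CPM, counts scaled to the library size with TMM factors, which grow with the length of a transcript and were not compared between genes. Differences were tested with edgeR's quasi-likelihood test on the 6 libraries, and a transcript was counted as passing when its p, adjusted by Benjamini and Hochberg over all transcripts tested, was under 0.05. In a principal component analysis of log2 CPM, the first component held 63.2% of the variance. On it, 36 °C pools A, B and C lay at -44.9, -24.1 and -20.8, and 25 °C pools A, B and C at 45.1, 24.0 and 20.6. Pool A thus lay furthest out in both groups. By epidermal transcripts, 25 °C pool A stood apart. In 25 °C pool A, transcripts of epidermal genes (cuticle proteins and the like) summed to 9997 CPM of the unscaled total, against 803 and 848 in 25 °C pools B and C. The same sum was 342, 538 and 1671 in 36 °C pools A, B and C, so that the highest 36 °C pool lay above 2 of the 25 °C pools. Markers of the germ line were not all well covered. The germ line gene *nanos* had only 22, 16 and 11 counts in the 36 °C pools and 6, 10 and 8 counts in the 25 °C pools. In contrast, *oskar*, a germ cell determinant, was well covered in all 6 pools. Its level was 243, 183 and 199 CPM at 36 °C and 129, 160 and 193 CPM at 25 °C (adjusted p = 0.107). The fruit fly testis gene *klhl10*, needed for caspase activation in spermatids, has the ortholog NV13442, which had 1191, 1497 and 1622 CPM in the 36 °C pools and 2441, 1813 and 1647 CPM in the 25 °C pools (adjusted p = 0.0898).

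Of 7501 transcripts tested, 1100 (14.7%) were higher and 1059 (14.1%) were lower at 36 °C, 28.8% in all. Leaving out 1 pool lowered these counts most for 36 °C pool A (658 higher and 477 lower), and the lower count fell to 567, 661 and 665 without 36 °C pool B, 36 °C pool C and 25 °C pool B. Without 25 °C pool A, 1064 were higher and 961 lower. Most differences were moderate. The log2 fold change had a median of 0.91 among those that were higher and of -0.76 among those that were lower, beside -0.01 over all transcripts tested. A rise of more than 2-fold was seen in 457 transcripts and one of more than 8-fold in 34, whereas 328 fell by more than 2-fold and 9 by more than 8-fold. The pools of the 2 groups did not overlap in 46.5% of the transcripts tested, so that a lack of overlap alone is common in these data. The largest shifts among abundant transcripts were rises, and 5 of them belong to a single run of neighbouring genes.

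**Figure D1:**
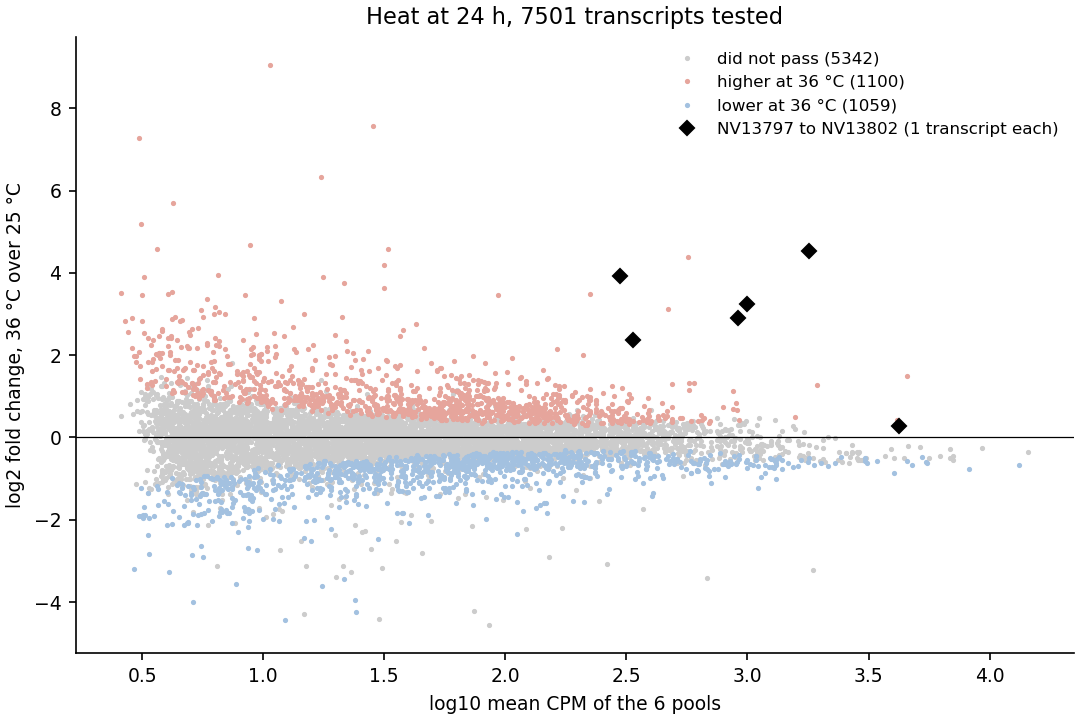
Each point is 1 of the 7501 transcripts tested, with the log10 of its mean CPM over the 6 pools on the x axis and the log2 fold change (36 °C over 25 °C, at 24 h) on the y axis. Red and blue points are the 1100 higher and the 1059 lower transcripts, grey points did not pass, and black diamonds are 1 transcript each of the neighbouring genes NV13797 to NV13802, of which 5 lie far above 0 and 1 (NV13799) close to it.

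Small heat shock genes were much higher at 36 °C. By the study's table of orthologs, 5 wasp genes correspond to the fruit fly group *Hsp22*, *Hsp23*, *Hsp26*, *Hsp67Ba* and *Hsp67Bc*: NV13797, NV13798, NV13799, NV13801 and NV13802. Among the genes in the counts, they lie side by side in the RefSeq gene order, together with NV13800. NV13800 has no ortholog in that table and is described here only as their neighbour. Of the 7 transcripts tested from the 5 orthologs, 4 were higher (57.1%) and 0 were lower, beside 14.7% and 14.1% over all transcripts tested. The median log2 fold change of the 7 was 2.37. The sequences of these genes were not compared here. How any reads that they share were assigned is not stated by the study, so that the split of reads among them carries that uncertainty.

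NV13802 had 641, 473 and 569 CPM in the 36 °C pools, against 53.6, 27.5 and 27.7 CPM in the 25 °C pools. All 36 °C pools were far above all 25 °C pools, a log2 fold change of 3.93 ± 0.27 (SE) with an adjusted p of 7.63e-05. NV13801 had 2149, 1605 and 1641 CPM at 36 °C, against 161, 184 and 221 CPM at 25 °C, again with no overlap (log2 fold change 3.25 ± 0.18 SE, adjusted p = 1.11e-05). NV13797 has 3 transcripts, and 1 of them had 1997, 1294 and 1543 CPM at 36 °C, against 224, 201 and 223 CPM at 25 °C (log2 fold change 2.90 ± 0.18 SE, adjusted p = 1.53e-05). The other 2 transcripts of NV13797 lay between 10.8 and 24.6 CPM at 36 °C and between 9.20 and 21.5 CPM at 25 °C and did not pass (adjusted p = 0.787 and 0.489). NV13798 had 774, 472 and 444 CPM at 36 °C, against 129, 115 and 83.5 CPM at 25 °C. This rise, the smallest of the 4 on the log2 scale, was 2.37 ± 0.25 (SE, adjusted p = 0.000507), and its highest 36 °C pool was pool A.

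NV13799 stands in the middle of the run and was already abundant at 25 °C. It had 4998, 4457 and 4390 CPM in the 36 °C pools, against 4085, 3195 and 4177 CPM in the 25 °C pools. The lowest 36 °C pool was only slightly above the highest 25 °C pool, and the transcript did not pass (log2 fold change 0.27 ± 0.16 SE, adjusted p = 0.230). NV13800, on the other side of it, had 3954, 3167 and 3185 CPM at 36 °C, against 161, 134 and 150 CPM at 25 °C (log2 fold change 4.53 ± 0.17 SE, adjusted p = 4.62e-07). It was 23.1-fold higher, the largest rise of the 6 neighbours. Summed over the 6 genes, the counts amounted to 1.54%, 1.19% and 1.23% of the total count in the 36 °C pools, against 0.410%, 0.381% and 0.493% in the 25 °C pools. The counted genes next to the run on both sides had 3 counts or fewer in each of the 6 libraries. Those on the side of NV13797, *Mir3477* and *Mir12*, are microRNA genes by their symbols. How far the response extends beyond the run was not tested.

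The same run of genes was measured at 10 h in other pools. At 36 °C and 10 h, NV13800 lay between 2718 and 5074 CPM, against 165 to 231 CPM at 25 °C and 10 h and 135 to 182 CPM at 25 °C and 0 h. NV13799 lay between 5530 and 5907 CPM at 36 °C and 10 h, against 3818 to 5469 CPM at 25 °C and 10 h. The 5 genes that were higher at 24 h were also higher at 10 h, with log2 fold changes of 2.85 (NV13797), 3.45 (NV13798), 4.45 (NV13800), 3.24 (NV13801) and 4.36 (NV13802), whereas NV13799 (0.32, adjusted p = 0.566) did not pass at 10 h either. For none of these transcripts did the heat effect at 24 h pass a test of its difference from the effect at 10 h.

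**Figure D2:**
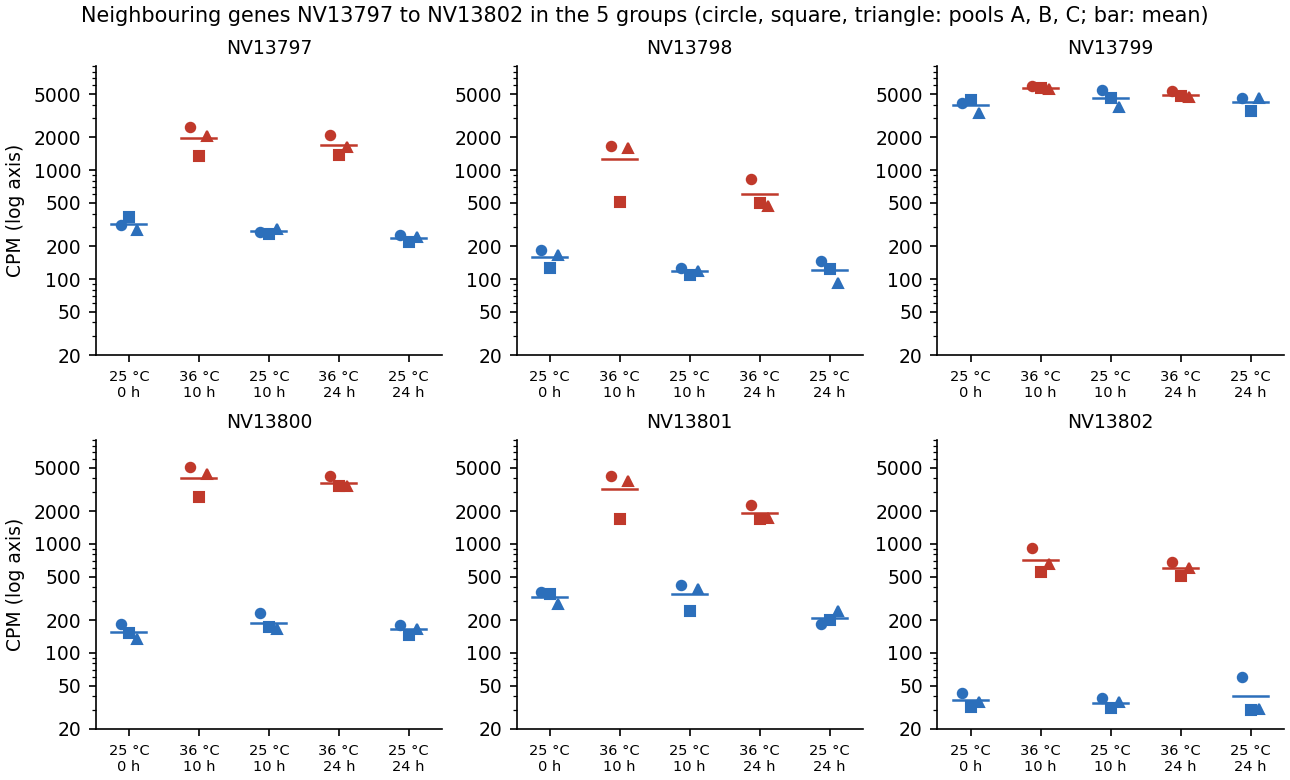
Levels of the neighbouring genes NV13797 to NV13802 (for NV13797, the transcript that rose) in the 5 groups of the series, as CPM scaled over all 15 libraries, on log axes with the same range in each panel. Red marks 36 °C and blue 25 °C, circles, squares and triangles are pools A, B and C, and bars are means. In 5 of the 6 panels both 36 °C groups lie far above the 3 groups at 25 °C, and in that of NV13799 all 5 groups lie between 3358 and 5907 CPM.

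Other chaperone genes moved much less. Of 16 listed genes, 14 were in the counts and 13 had a tested transcript, and of their 16 transcripts 3 were higher, 3 were lower and 10 did not pass (median log2 fold change 0.08). The share of 18.8% in each direction is close to the 14.7% and 14.1% over all transcripts tested, and 1 of the 6 calls held without each pool. The gene for the Hsp90 ortholog Hsp83 (NV11936), a chaperone that matures kinases and other signalling proteins, was lower. It had 1646, 1316 and 1404 CPM in the 36 °C pools, against 2115, 2351 and 2470 CPM in the 25 °C pools, without overlap (log2 fold change -0.67 ± 0.15 SE, adjusted p = 0.00883). This call was lost without 36 °C pool B (adjusted p = 0.0635) and without 36 °C pool C (0.0507), and in a fit that also held the 6 libraries at 10 h (0.0896).

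*HSC70*, which by its symbol encodes a 70 kDa heat shock cognate chaperone, had 4660, 4781 and 4856 CPM at 36 °C, against 3610, 3398 and 3669 CPM at 25 °C. Every 36 °C pool was above every 25 °C pool, but the rise of 0.42 ± 0.14 (SE) on the log2 scale was just past the threshold (adjusted p = 0.0473). It was lost with RLE size factors (0.0599) and without any 1 pool other than 25 °C pool A (adjusted p of 0.108, 0.141 and 0.136 without 36 °C pools A, B and C, and of 0.158 and 0.0565 without 25 °C pools B and C). The ortholog of *unc-45* (NV16001), a cochaperone that folds myosin, had 106, 101 and 84.6 CPM at 36 °C, against 53.0, 62.7 and 51.1 CPM at 25 °C. Its rise of 0.81 ± 0.14 (SE) on the log2 scale (adjusted p = 0.00353) held without each pool.

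The cochaperone gene *Chordc1*, with 107, 96.2 and 102 CPM at 36 °C against 132, 131 and 130 CPM at 25 °C, was lower by the test (log2 fold change -0.36 ± 0.11 SE, adjusted p = 0.0334). Its call was lost without each 36 °C pool (adjusted p of 0.0735, 0.159 and 0.103 for A, B and C) and without 25 °C pool B (0.0839) or C (0.0587). For *mrj* (NV15618), a J-domain cochaperone of Hsp70, 1 of 3 tested transcripts fell (-0.49 ± 0.14 SE, adjusted p = 0.0258), and for *Tpr2* (NV15535) 1 of 2 rose (0.99 ± 0.31 SE, adjusted p = 0.0360). Both calls were lost without any of the 36 °C pools, with adjusted p between 0.0600 and 0.127, and without 25 °C pool A (0.0584 for *mrj* and 0.0728 for *Tpr2*), and that of *Tpr2* also without 25 °C pool B (0.115). Subunits of the ring-shaped chaperonin of the cytosol, which folds actin and tubulin, did not pass: *CCT6* (NV16710), *Cct7* and *Cctgamma* had log2 fold changes of 0.01, -0.06 and -0.19.

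Among the largest rises were genes with no name in the tables used here. NV13994 had the lowest p of all transcripts. It had 1139, 973 and 1153 CPM in the 36 °C pools, against 49.8, 51.3 and 56.2 CPM in the 25 °C pools (log2 fold change 4.38 ± 0.14 SE, adjusted p = 1.81e-07). The 36 °C pools were all about 20.8-fold above the 25 °C pools, and the effect at 10 h was nearly the same (4.31). NV50117 had 687, 813 and 1022 CPM at 36 °C, against 83.4, 99.3 and 107 CPM at 25 °C (3.12 ± 0.18 SE, adjusted p = 1.11e-05).

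A transcript of NV12244, a gene with 5 annotated transcripts, had 0 counts in each 25 °C pool and 139, 47 and 54 counts in 36 °C pools A, B and C. Against a floor of 3 counts over the 25 °C group it was at least 56.1-fold higher at 36 °C (adjusted p = 0.000174). A second transcript of NV12244 had 26.2, 16.0 and 22.3 CPM at 36 °C, against 2.22, 1.37 and 2.73 CPM at 25 °C (log2 fold change 3.32, adjusted p = 0.00024). One other tested transcript, that of NV12199, also had 0 counts in each 25 °C pool, beside 37, 20 and 11 counts at 36 °C (at least 16.2-fold higher, adjusted p = 0.00135).

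The other large rises were seen at low levels. *Or2*, by its symbol an odorant receptor gene, had 24.1, 13.1 and 13.5 CPM in the 36 °C pools and 0.317, 1.83 and 0 CPM in the 25 °C pools (log2 fold change 4.67 ± 0.62 SE, adjusted p = 0.000928). NV17254 had 16.8 to 130 CPM at 36 °C, against 0 to 0.390 CPM at 25 °C. Here 36 °C pool C was far above the other pools, the SE was 1.73 for a log2 fold change of 7.57, and the call (adjusted p = 0.0346) was lost without 36 °C pool A (0.0596) and without 25 °C pool A (0.158), B (0.104) or C (0.105). The remaining members of the 12 largest rises, with log2 fold changes of 3.76 to 6.33, were NV16759, LOC100678432, NV17637, NV10312, NV11635 and NV18444.

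Among the abundant transcripts that rose, NV10003 had 7908, 5967 and 6299 CPM at 36 °C, against 1655, 2513 and 3033 CPM at 25 °C (log2 fold change 1.49 ± 0.23 SE, adjusted p = 0.00193). NV11657 had 3143, 2675 and 2417 CPM at 36 °C, against 1141, 1087 and 1189 CPM at 25 °C (1.27 ± 0.15 SE, adjusted p = 0.000518). Neither gene overlapped between the groups, and neither has a name in the tables used here.

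**Figure D3:**
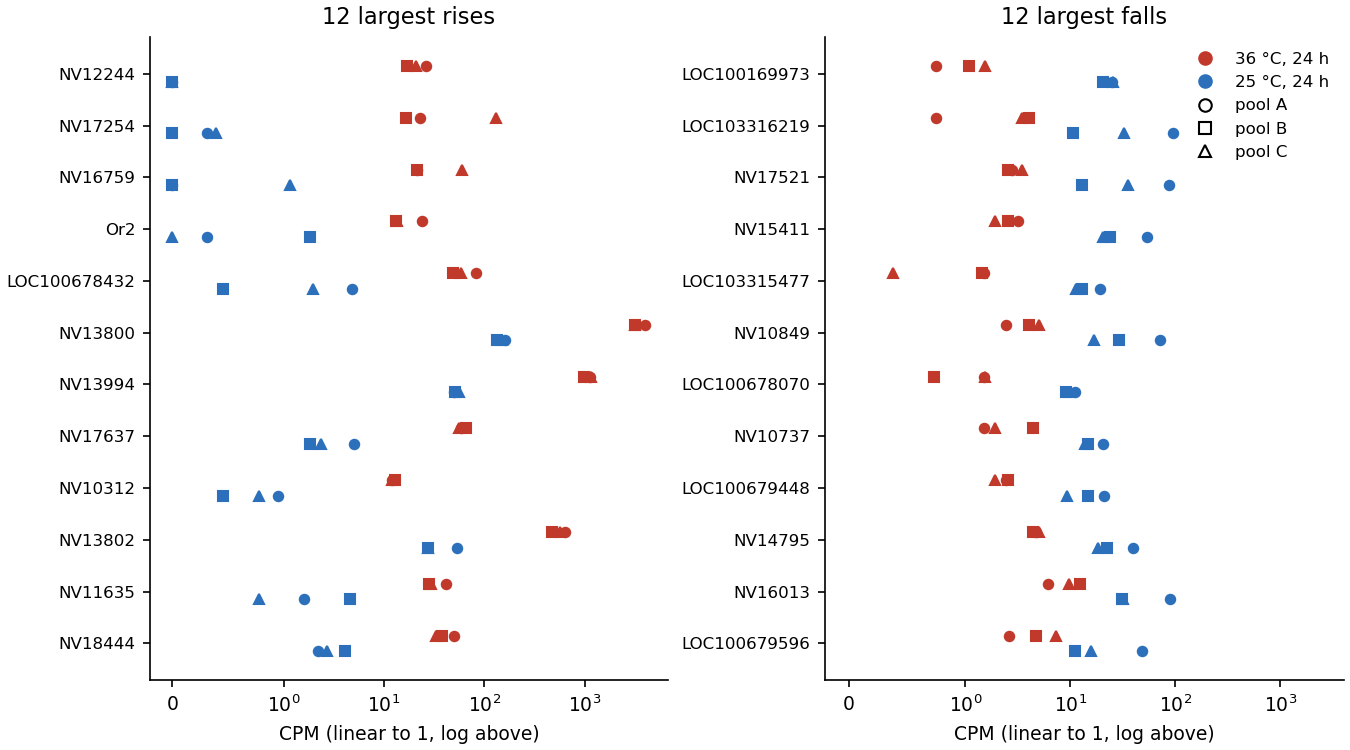
CPM in each pool (linear up to 1 and logarithmic above) for the 12 largest rises and the 12 largest falls among transcripts that passed, whose pools do not overlap and whose higher group averages at least 10 CPM. Red marks 36 °C (upper row of each gene) and blue 25 °C (lower row), and circles, squares and triangles are pools A, B and C. Among the falls, 25 °C pool A is the highest of its group for 11 of 12 genes.

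The largest falls were mostly seen in transcripts that were also highest in 25 °C pool A. This pool was the highest of its group for 11 of the 12 largest falls, and its epidermal transcripts stood apart as given above. All 12 passed without 25 °C pool A and without 25 °C pool B, 11 passed without 25 °C pool C, and 7, 9 and 10 passed without 36 °C pools A, B and C. The gene for which pool A was not the highest was LOC100169973, the largest of the 12, with 0.748, 1.09 and 1.54 CPM in the 36 °C pools against 24.7, 20.6 and 25.4 CPM in the 25 °C pools (log2 fold change -4.44 ± 0.31 SE, adjusted p = 3.54e-05). NV15411 had 3.18, 2.55 and 1.92 CPM at 36 °C, against 53.3, 23.8 and 20.3 CPM at 25 °C (-3.61 ± 0.43 SE, adjusted p = 0.000607). The gene LOC100678070 is annotated as a long non-coding RNA, but the transcript that fell has the RefSeq identifier of an mRNA. This transcript, 1 of 3, had 0.729 to 1.54 CPM at 36 °C, against 9.15 to 11.1 CPM at 25 °C (-2.92 ± 0.35 SE, adjusted p = 0.000593). It fell by a like amount at 10 h (-3.04).

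Among falls of low p, *Hex70b*, which encodes a hexamerin, a storage protein that insects make mainly in the fat body, had 14.0, 14.2 and 17.7 CPM in the 36 °C pools, against 70.4, 62.2 and 60.5 CPM in the 25 °C pools. The groups were well apart and the pools of each group close together (log2 fold change -2.08 ± 0.17 SE, adjusted p = 7.63e-05). Summed over the 3 hexamerin genes, the level was 23.2, 22.3 and 29.6 CPM of the unscaled total at 36 °C. At 25 °C it was 67.3, 66.3 and 68.1. Most of this sum was *Hex70b* itself, with 16.9, 16.3 and 21.2 at 36 °C and 60.8, 61.8 and 61.8 at 25 °C. Of 2 tested hexamerin transcripts only that of *Hex70b* passed, and the other had a log2 fold change of -0.10. The sum is thus no separate evidence of a fall in the other hexamerin genes. LOC103317805 had 117, 109 and 93.4 CPM at 36 °C, against 300, 308 and 342 CPM at 25 °C (-1.57 ± 0.12 SE, adjusted p = 7.63e-05), and NV14393 had 49.2, 49.9 and 45.7 CPM at 36 °C, against 149, 122 and 135 CPM at 25 °C (-1.49 ± 0.13 SE, adjusted p = 0.000146).

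Genes of the sperm tail and of spermatid differentiation were on the lower side. The study named 4 genes for spermatid differentiation and 5 for sperm motility, 1 gene being in both groups, because their level changed between the nymphal stages, and the 25 °C pools at 24 h are of the later stage. The lists are thus not independent evidence of a direction. All 8 genes had negative values: 2 of 4 and 3 of 5 passed as lower, with the shared gene counted in both, and 0 as higher. Over all transcripts tested, 14.1% were lower and 14.7% higher. The medians of the 2 lists were -0.47 and -0.49. The gene in both lists, NV16259 (mule or Kl5 in the study's text), had 785, 880 and 854 CPM in the 36 °C pools, against 1296, 1575 and 1696 CPM in the 25 °C pools. This was the largest fall of the 8 genes, -0.86 ± 0.14 (SE) on the log2 scale with an adjusted p of 0.00269, and it held without each pool but not in the fit of 12 libraries (adjusted p = 0.187). The dynein gene NV14122, a motor of the sperm tail, had 861, 1123 and 1132 CPM at 36 °C, against 1424, 1679 and 1666 CPM at 25 °C (-0.61 ± 0.15 SE, adjusted p = 0.0154), and its call was lost without 36 °C pool A (0.0764) or 25 °C pool B (0.0596).

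NV13691 (armadillo) had 239, 289 and 272 CPM at 36 °C, against 452, 386 and 348 CPM at 25 °C (-0.57 ± 0.13 SE, adjusted p = 0.0113), a call lost without 36 °C pool A (0.0578). NV10434 (heat in the study's text) had 1379, 1582 and 1505 CPM at 36 °C, against 2327, 2065 and 1899 CPM at 25 °C (-0.49 ± 0.14 SE, adjusted p = 0.0265). That call was lost without 36 °C pool A (0.126), B (0.0841) or C (0.0981) or 25 °C pool B (0.0718). In the fit of 12 libraries, NV13691 (adjusted p = 0.237), NV14122 (0.320) and NV10434 (0.354) did not pass either. The dynein gene NV16467, didum (NV12941), which encodes a myosin that moves cargo on actin, cut up (*DLC-A*) and Dnai2 (NV10124) did not pass, with log2 fold changes of -0.35, -0.36, -0.28 and -0.08.

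The α-tubulin genes fell too. NV13665 and NV13570 are both orthologs of the fruit fly genes *alphaTub84B* and *alphaTub84D*, which encode the building block of spindle and sperm tail microtubules. NV13665 had 5332, 6459 and 6608 CPM at 36 °C, against 12174, 9785 and 9115 CPM at 25 °C (log2 fold change -0.76 ± 0.18 SE, adjusted p = 0.0134). It was lost without 36 °C pool A (0.0794), B (0.0579) or C (0.0503), and in the fit of 12 libraries (0.128). NV13570 had 2699, 2957 and 2930 CPM at 36 °C, against 5951, 4905 and 4739 CPM at 25 °C (-0.86 ± 0.16 SE, adjusted p = 0.00392), and this call held without each pool, with 0.0542 in the fit of 12 libraries. The groups did not overlap for either gene, and 25 °C pool A was the highest for both. The transcript with the most counts among those that fell, NV15950, which has no name in the tables used here, had 11357, 9961 and 9410 CPM at 36 °C, against 18668, 13972 and 16293 CPM at 25 °C (-0.67 ± 0.19 SE, adjusted p = 0.0234), and missed the threshold without 36 °C pool A (0.0641), B (0.113) or C (0.123).

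Dynein light chains and dynactin, which build and load the motor that walks to the minus end of microtubules, passed at about the share of all transcripts: 2 of 13 tested transcripts were higher (*robl* and *Dctn2*), 2 were lower (*Arp1* and *Arp11*) and 9 did not pass (15.4% in each direction, median log2 fold change -0.24). Without 25 °C pool A the counts were 1 and 3, and of the 4 calls only that of *Arp11* held without each pool. *Arp11*, an actin-related subunit of dynactin, had 59.1, 69.6 and 72.7 CPM at 36 °C, against 115, 111 and 89.4 CPM at 25 °C (-0.65 ± 0.14 SE, adjusted p = 0.00935).

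**Figure D4:**
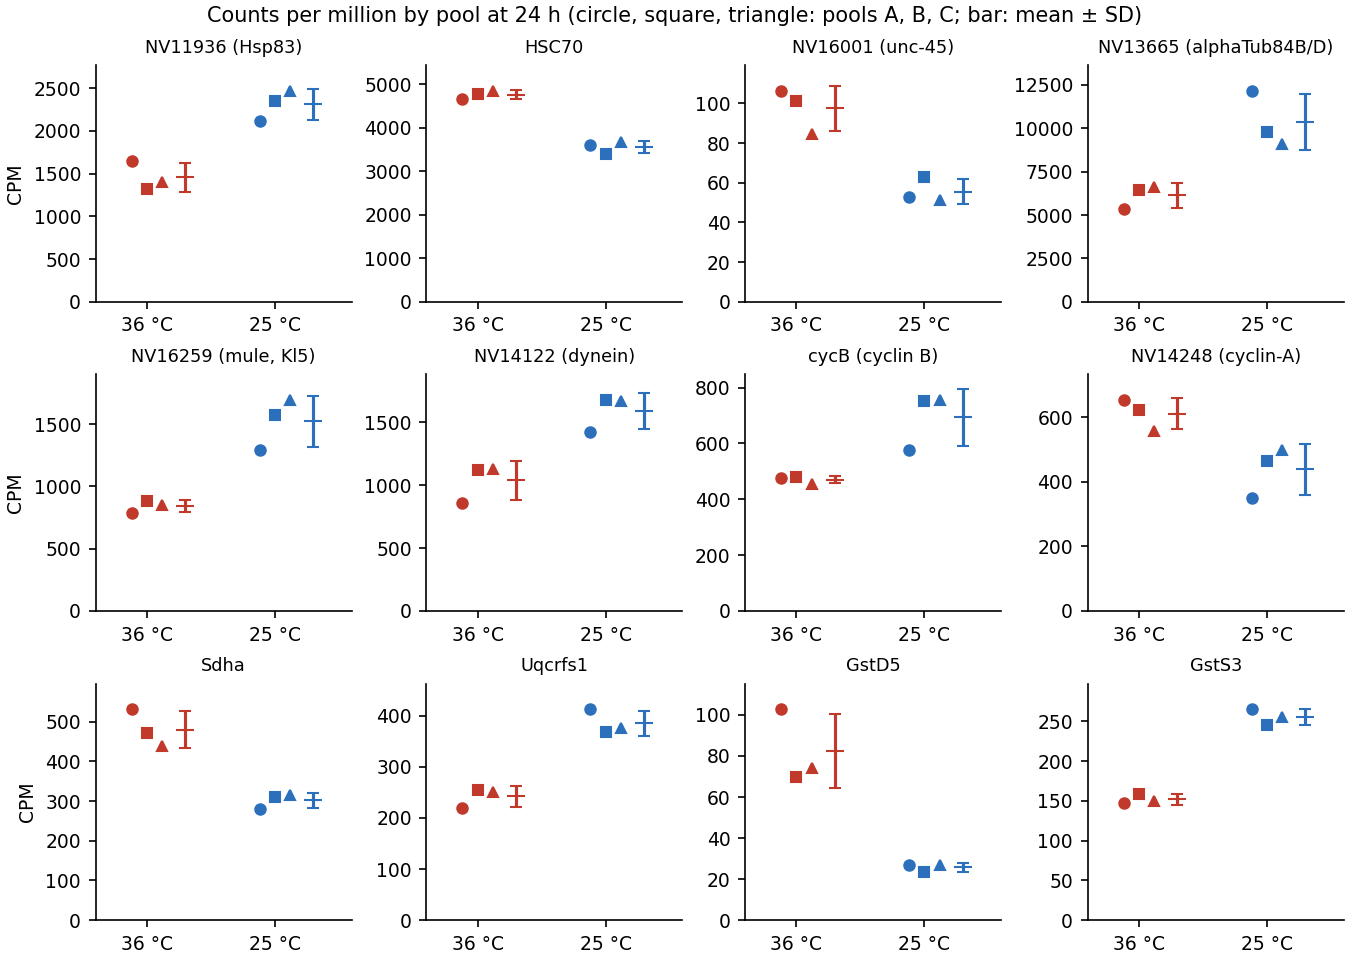
CPM in each pool at 24 h for 12 transcripts of chaperone, microtubule, sperm tail, cyclin, respiratory chain and detoxification genes, on linear axes from 0. Red is 36 °C (left) and blue is 25 °C (right), circles, squares and triangles are pools A, B and C, and bars are the mean ± SD of 3 pools. The groups do not overlap in any panel, with 36 °C above 25 °C for HSC70, NV16001, NV14248, Sdha and GstD5 and below it for the other 7.

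Single genes of meiosis and the cell cycle passed in either direction. Of the study's 11 known meiosis genes, 7 had tested transcripts, of which 2 of 8 were higher and 1 was lower (median 0.12). Of its 15 further meiosis genes, 9 were tested, with 2 of 10 transcripts higher and 1 lower (median -0.08), and 1 higher and 2 lower without 25 °C pool A. Of these 6 calls, 0 held without each pool, and the shares over all transcripts tested were 14.7% and 14.1%. Cyclin B (*cycB*), the partner of Cdk1 at the entry into division, had 476, 478 and 456 CPM at 36 °C, against 576, 750 and 756 CPM at 25 °C (-0.56 ± 0.13 SE, adjusted p = 0.0132). Cyclin A (NV14248) went the other way, with 654, 622 and 557 CPM at 36 °C, against 351, 464 and 499 CPM at 25 °C (0.48 ± 0.15 SE, adjusted p = 0.0362). Both calls were lost without 1 of several pools: without 36 °C pool A, B or C, adjusted p was 0.0505, 0.0573 and 0.0609 for *cycB* and 0.103, 0.0973 and 0.0522 for NV14248, and without 25 °C pool B it was 0.0563 and 0.0807.

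The kinesin gene *Klp3A* (NV11229), which in the fly is needed for the central spindle of male meiosis, had 358, 271 and 250 CPM at 36 °C, against 166, 207 and 227 CPM at 25 °C (0.55 ± 0.16 SE, adjusted p = 0.0309). Its call was lost without 36 °C pool A (0.103) or B (0.0571) or 25 °C pool B (0.0825). For *mei-P26* (NV10527), which in the fly limits germ cell divisions, 1 of 2 tested transcripts rose, with 10.3, 6.20 and 4.61 CPM at 36 °C against 1.59, 2.75 and 2.73 CPM at 25 °C (1.66 ± 0.42 SE, adjusted p = 0.0172, and 0.102 without 36 °C pool A). Of 13 tested transcripts in a wider cell cycle list, 0 were higher and 2 were lower (median 0.27), *cycB* and *Skp1*, which encodes a subunit of a ubiquitin ligase (443, 517 and 507 CPM at 36 °C against 894, 753 and 659 CPM at 25 °C, -0.65 ± 0.14 SE, adjusted p = 0.00867). The piRNA pathway, which silences transposons in the germ line, had 3 tested transcripts and 0 that passed. Over all transcripts tested, 14.7% were higher and 14.1% lower.

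The study's oogenesis genes were also chosen for a change between the stages. Of their 8 tested transcripts, 1 was higher and 1, *Hsp83*, was lower, beside 14.7% and 14.1% over all transcripts tested. The higher one was *hop* (NV16630), the Janus kinase of the fly, with 66.8, 55.8 and 49.6 CPM at 36 °C against 24.1, 38.0 and 30.5 CPM at 25 °C (0.91 ± 0.19 SE, adjusted p = 0.00797). Of the 4 genes of Notch receptor processing, chosen in the same way, only *garnet* (NV11151), a subunit of an adaptor complex for vesicles, passed, with 174, 167 and 153 CPM at 36 °C against 198, 247 and 266 CPM at 25 °C (-0.52 ± 0.13 SE, adjusted p = 0.0164). It was lost without 36 °C pool B (0.0634) or C (0.0737) or 25 °C pool B (0.0610).

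**Figure D5:**
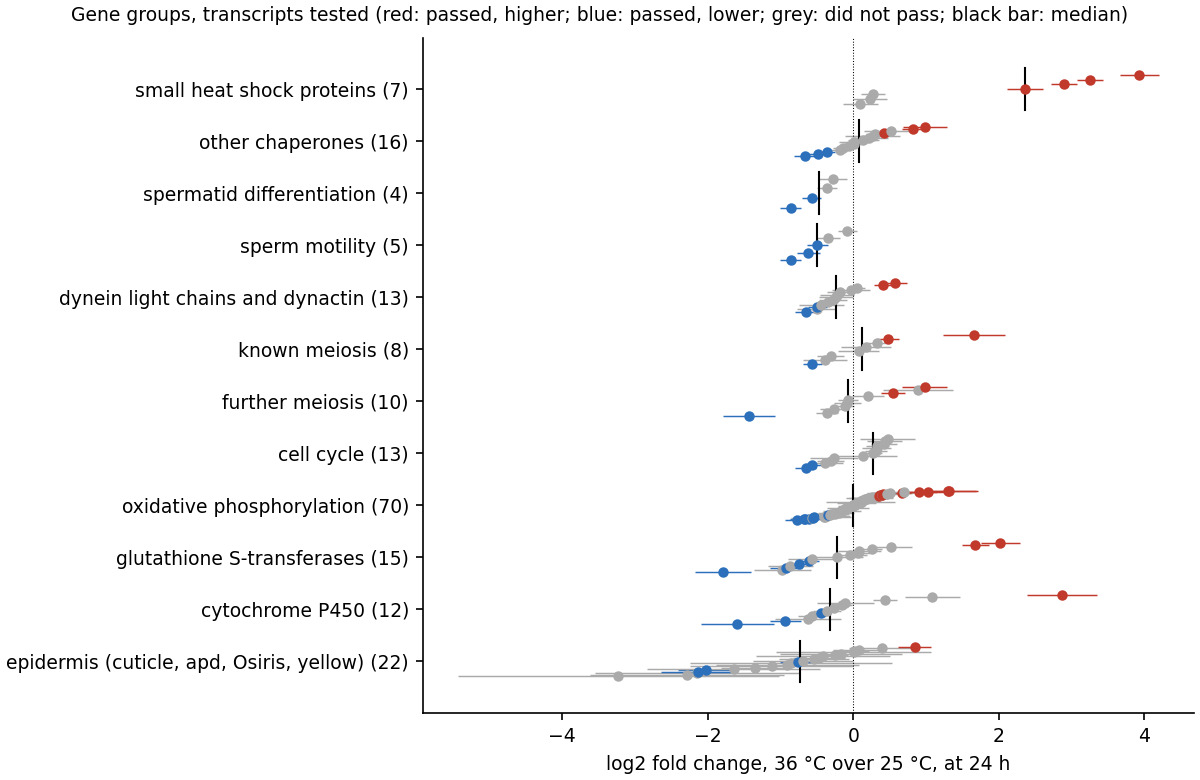
Log2 fold change (36 °C over 25 °C, at 24 h) of each tested transcript in 12 gene groups, with the number of transcripts in parentheses. Points are estimates with SE as error bars, red and blue for transcripts that passed as higher and as lower and grey for the rest, and black bars are group medians. The small heat shock proteins have a median of 2.37, the other groups lie between -0.73 and 0.27.

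Genes of the mitochondrial respiratory chain passed in shares slightly under those of all transcripts. Of 70 tested transcripts for oxidative phosphorylation, 9 were higher (12.9%), 7 were lower (10.0%) and 54 did not pass, beside 14.7% and 14.1% over all transcripts tested, and the median log2 fold change was -0.00. The higher ones included *Sdha*, the flavoprotein of complex II, with 532, 470 and 438 CPM in the 36 °C pools against 280, 310 and 315 CPM in the 25 °C pools (0.67 ± 0.12 SE, adjusted p = 0.00365). The lower ones included *Uqcrfs1*, the iron-sulphur protein of complex III, with 219, 255 and 252 CPM at 36 °C against 413, 367 and 376 CPM at 25 °C (-0.67 ± 0.11 SE, adjusted p = 0.00293), and *Atp5o*, a subunit of ATP synthase, with 253, 257 and 284 CPM at 36 °C against 435, 371 and 403 CPM at 25 °C (-0.61 ± 0.11 SE, adjusted p = 0.00458). These 3 calls held without each pool, but 8 of the 9 higher and 3 of the 7 lower transcripts lost theirs without at least 1 pool. In a list of mitochondrial import and ribosome genes, 1 of 9 was higher and 1 lower (median 0.08). The higher one was *Timm50*, a receptor of the import channel, with 114, 101 and 87.7 CPM at 36 °C against 41.2, 57.7 and 51.5 CPM at 25 °C (1.02 ± 0.16 SE, adjusted p = 0.00214). Of 4 tested cytosolic ribosomal protein transcripts, 0 passed, and 2 passed as higher without 25 °C pool A.

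Single detoxification genes changed by more than 2-fold. Among glutathione S-transferases, which join glutathione to reactive compounds, 2 of 15 tested transcripts were higher (13.3%) and 4 were lower (26.7%, median -0.23), beside 14.7% and 14.1% over all transcripts tested. *GstD5* had 103, 69.6 and 74.2 CPM at 36 °C, against 27.0, 23.3 and 26.9 CPM at 25 °C (1.68 ± 0.18 SE, adjusted p = 0.000387). *GstO2* had 15.2, 15.7 and 12.7 CPM at 36 °C, against 3.49, 4.12 and 3.12 CPM at 25 °C for the 1 transcript of 4 that was tested (2.02 ± 0.27 SE, adjusted p = 0.000877). *GstS3* had 147, 159 and 150 CPM at 36 °C, against 266, 245 and 255 CPM at 25 °C, and was the steadiest of those that fell (-0.75 ± 0.10 SE, adjusted p = 0.00107). All 3 were without overlap and held without each pool, though *GstS3* did not pass in the fit of 12 libraries (adjusted p = 0.078). Of 12 tested cytochrome P450 transcripts, 1 was higher (*CYP4AB14*, 2.87 ± 0.48 SE, adjusted p = 0.0028) and 3 were lower, among them *CYP4AB12* with 10.1, 12.8 and 11.1 CPM at 36 °C against 22.8, 23.3 and 18.3 CPM at 25 °C (-0.93 ± 0.21 SE, adjusted p = 0.0102, and 0.0515 without 36 °C pool A). Without 25 °C pool A the P450 counts were 2 and 2, and 0 of the 3 lower calls held without each pool. The single tested thioredoxin transcript (NV13156), of a small protein that reduces disulphide bonds, had 200, 237 and 261 CPM at 36 °C, against 460, 379 and 289 CPM at 25 °C (-0.70 ± 0.17 SE, adjusted p = 0.0151), and was lost without 36 °C pool A (0.0702) or B (0.0542).

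Markers of other tissues that a dissected testis can carry were measured beside these results. Of 22 tested transcripts of epidermal genes, 1 was higher (4.55%), 3 were lower (13.6%) and 18 did not pass, with a median log2 fold change of -0.73. The shares over all transcripts tested were 14.7% and 14.1%. Without 25 °C pool A the epidermal counts were 1 and 2. The most abundant, *apd-3*, had 27.3, 95.8 and 966 CPM in the 36 °C pools, against 9381, 334 and 418 CPM in the 25 °C pools, with overlap, and did not pass (-3.23, adjusted p = 0.340). Of the 59 epidermal genes in the counts, 11 had no count in the 6 libraries. The 8 muscle genes summed to 444, 768 and 957 CPM of the unscaled total at 36 °C, against 1237, 851 and 856 at 25 °C, again with overlap, and 0 of 3 tested transcripts passed. Of the 13 nerve genes, which summed to 69.8, 60.6 and 51.6 at 36 °C and to 41.4, 36.7 and 38.7 at 25 °C, 1 of 4 tested transcripts was higher. It was that of *nAChRa4*, a nicotinic acetylcholine receptor subunit, with 20.4, 13.8 and 11.9 CPM at 36 °C against 1.27, 0.458 and 2.34 CPM at 25 °C (3.46 ± 0.43 SE, adjusted p = 0.000692). The 2 hemocyte genes summed to at most 3.8 CPM in any pool. The part of these tissues in the differences between the groups was not tested.

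The response at 24 h was then set beside that at 10 h, which had been measured in other libraries. At 10 h, in a fit of 12 libraries, 187 transcripts (2.24%) were higher and 115 (1.38%) were lower at 36 °C among 8351 tested. Of the 178 transcripts that were higher at 10 h and were tested at 24 h, 157 were also higher at 24 h, which is 88.2% of these and 14.3% of those higher at 24 h. Of 105 lower at 10 h and tested at 24 h, 78 were also lower at 24 h, 74.3% of these and 7.37% of those lower at 24 h. No transcript passed in opposite directions. The calls at 24 h are those of the fit of 6 libraries, so the shares set unlike fits side by side. In the fit of 12 libraries, 699 were higher and 493 lower at 24 h. Beyond the calls, 89.4% of the transcripts higher and 90.1% of those lower at 24 h had the same sign at 10 h, against 71.8% of all transcripts tested, with medians at 10 h of 0.46 and -0.45.

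Whether the heat effect differed between 24 h and 10 h was tested directly as an interaction, and 0 of 8351 transcripts (0%) passed with edgeR, with 654 at an unadjusted p under 0.05 and a lowest adjusted p of 0.249. DESeq2 called 9. The count rested on a single library, since without 36 °C pool B at 10 h, edgeR called 124. A transcript that passed at 24 h and not at 10 h, such as that of *GstS3*, was therefore not shown to respond at 24 h only. *GstS3* gave -0.75 at 24 h and 0.02 at 10 h, and *Chordc1* -0.36 at 24 h and 0.48 at 10 h.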

How the data were processed

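Testis RNA of pooled nymphs was sequenced as paired reads, with a stranded kit by the labels and a TruSeq RNA kit by the methods. Reads were aligned by the authors with TopHat2 (version 2.1.0 in the submitters' processing notes) on Nvit_2.1, then counted with htseq-count by the methods or featureCounts 1.6.3 by the notes. The deposited raw counts per RefSeq transcript (26279 transcripts, 13999 genes) are not normalized. Of 6 deposited tables, those that hold the 36 °C and the 25 °C libraries at 24 h were joined on the transcript identifier. Their other columns, the authors' DESeq2 fold changes and p-values and 54 columns of normalized values, were not used.

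Transcripts were kept with filterByExpr and scaled with TMM factors, and the 6 libraries were fitted with the quasi-likelihood model of edgeR 4.0.16 in R 4.3.3, with robust estimates and adjusted p over all transcripts tested. To obtain the SE, the log2 fold change was divided by the root of the F statistic. With 3 pools against 3, a permutation test of 1 gene cannot go below p = 0.1, and none was run. Alternatives were DESeq2 1.42.0, other scaling factors and filters, gene sums and single pools left out. Named transcripts were the 12 largest rises and falls, and in each direction the 4 of lowest p and the 4 of highest level, with at least 10 CPM and no overlap between groups, besides members of the gene lists. The members and lists were chosen with earlier results of these data known. Symbols and gene order were read from RefSeq annotation of Nvit_psr_1.1, and orthologs from the study's supplementary table. Some genes are not reported here.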

Additional observations from a re-analysis of the deposited data

How the results depend on the processing

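The counts of calls moved with the pools and the model more than with the scaling. The 1100 higher and 1059 lower transcripts became 1102 and 1053 with RLE factors, and 577 and 418 with a replicate block. The deviations of same-letter pools from their group means had correlations of -0.46, -0.01 and -0.29. With 3 pools a group, such values cannot show whether the letters mark a shared batch. Whether the lower count with the block means a weaker effect was not tested. With all 12 libraries of the 24 h and 10 h groups in the fit, 699 and 493 passed. Leaving out 1 pool gave 658 to 1097 higher and 477 to 1046 lower transcripts, fewest without 36 °C pool A (658 and 477), and in the lower direction 567, 661 and 665 without 36 °C pool B, 36 °C pool C and 25 °C pool B. A test against a 2-fold change called 71 higher and 21 lower, and no filter on low counts gave 1363 and 1247. DESeq2 gave 929 and 890. For the interaction with 10 h, counts ranged from 0 to 124, with 124 without 36 °C pool B at 10 h. Of 101 transcripts that passed and are named or belong to a list, 46 kept their call wherever they were tested among 13 alternatives that give transcript values. Some of them were not tested under every alternative, such as the filter on counts in every library. The cuticle gene *TWDL2* did not pass (log2 fold change -0.41), and ranged from -0.86 without 25 °C pool B to 1.90 without 25 °C pool A, where it passed as higher (adjusted p = 0.0103). A planned search for heat shock elements in promoters was not run, as no promoter sequences were used here.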

Other observations

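Most receptor genes of smell and taste had too few counts in these pools to be tested. Of 260 such genes in the counts, 94 had no count in the 6 libraries and 19 had enough counts to be tested. Of these, 5 were higher at 36 °C (26.3%) and 3 were lower (15.8%), with a median log2 fold change of -0.10. The shares over all transcripts tested were 14.7% and 14.1%. Besides *Or2*, the gustatory receptor gene *Gr47* had 17.0, 15.3 and 13.1 CPM in the 36 °C pools, against 4.44, 4.12 and 3.51 CPM in the 25 °C pools (1.91 ± 0.26 SE, edgeR adjusted p = 0.00101), and was higher at 10 h as well (2.39). *Or195* had 3.18, 1.09 and 3.84 CPM at 36 °C, against 12.4, 9.61 and 9.37 CPM at 25 °C (-1.91 ± 0.38 SE, adjusted p = 0.00553), with -2.23 at 10 h. Carboxylesterase transcripts were lower in 2 of 6 cases, *CCE-E10* (-1.73 ± 0.26 SE, adjusted p = 0.00158) and *CCE-A9* (-1.30 ± 0.24 SE, adjusted p = 0.00454), and of 7 tested serine protease transcripts 1 was higher and 1 lower, with 1 and 0 without 25 °C pool A. Of 381 tested transcripts that are non-coding by the prefix of their RefSeq identifier, 52 (13.6%) were higher and 74 (19.4%) were lower, beside 14.7% and 14.1% over all transcripts tested. Their median was -0.14, and without 25 °C pool A the counts were 52 and 56. By this rule the set holds transcripts of genes annotated as protein coding, such as NV16388, and leaves out that of LOC100678070.

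Of 366 genes with more than 1 tested transcript, 6 had transcripts that passed in opposite directions. A transcript of NV16388 had 151, 171 and 193 CPM at 36 °C, against 55.2, 65.4 and 64.0 CPM at 25 °C (log2 fold change 1.48, adjusted p = 0.000193), while another had 59.7, 63.4 and 65.4 CPM at 36 °C, against 86.9, 98.4 and 105 CPM at 25 °C (-0.62, adjusted p = 0.00660). By their RefSeq identifiers, the higher transcript is an mRNA and the lower transcript is non-coding. Both calls held without each pool. In NV10310, a transcript with 396, 525 and 517 CPM at 36 °C was lower than at 25 °C (1213, 831 and 693 CPM, -0.93, adjusted p = 0.00974), and the other, with 36.8 to 40.4 CPM at 36 °C, was higher than at 25 °C (1.64, adjusted p = 0.00762). Reads shared by transcripts of a gene were assigned in a way that the study does not state. These genes were chosen after their values were seen.

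Among the wasp orthologs of fly and mouse testis genes that the study tabulated, 165 were in the counts and 92 had a tested transcript. Of 99 transcripts, 19 (19.2%) were higher and 15 (15.2%) were lower, near the 14.7% and 14.1% over all transcripts tested. Without 25 °C pool A, 16 were higher and 11 lower. Besides those described above, NV15503, the ortholog of *singed*, which in the fly bundles actin, had 11.8, 16.8 and 21.9 CPM at 36 °C, against 81.5, 46.2 and 46.5 CPM at 25 °C (-1.83 ± 0.29 SE, adjusted p = 0.00231). A further list held 20 genes that the study discussed, its highly conserved testis genes and others beside them. Of their 14 tested transcripts, 1 (*GstO2*) was higher and 1 (*cycB*) was lower. By the study's qRT-PCR, *GstO2* was expressed in legs and head besides the testis. Its primers are listed for another transcript of the gene than the one that rose here. *Rpb10*, by its symbol a small subunit shared by RNA polymerases, had 270, 220 and 193 CPM at 36 °C, against 93.3, 106 and 83.5 CPM at 25 °C (1.28 ± 0.15 SE, adjusted p = 0.000553), with 1.36 at 10 h.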
